A study of Sus scrofa with 6 samples.

Results

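A set of 10 genes of the Wnt pathway was followed in scrapings of the uterine lining of the sow, which also held signals of stromal and muscle markers. The set had the secreted antagonists WIF1, SFRP1 and DKK3, the ligand WNT5A and the receptors FZD6 and LRP6. Its intracellular members were GSK3B, AXIN2, CTNNB1 and TCF7L2. All probe sets that the annotation of the porcine array pairs with 1 of these symbols were taken, together with a probe set that has no symbol there and that the supplement of the study assigns to WIF1. In this way 7 of the 10 genes were represented, by 15 of the 24123 probe sets on the array (6765 genes by symbol), while WNT5A, GSK3B and AXIN2 were not named by the annotation used and were not analysed here. Where a gene has several probe sets, they are called brighter or dimmer by their mean signal, which serves only as a name, and the plots of signals, of fold changes with their intervals and of differences within sows label each with its identifier.

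The samples came from 3 weaned Landrace x Large White crossbred sows, each of which gave both of its uterine horns. In each sow 1 oviduct received spermatozoa by laparoscopy and the opposite oviduct received the diluent alone, so that on day 6 one horn held embryos at the blastocyst stage and the other held oocytes. The lining of each horn was scraped off near the junction with the oviduct, and the RNA was hybridized to 1 Affymetrix porcine array per horn, which makes 3 arrays for horns with embryos and 3 for horns with oocytes. The 2 horns of a sow share its genotype and its cycle and differ in the sperm dose as well as in what the horn held, so that an effect of embryos and an effect of insemination cannot be told apart.

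Wnt proteins are secreted lipid-modified signals that bind a Frizzled receptor together with an LRP5 or LRP6 co-receptor on the receiving cell. Without a signal, a cytoplasmic complex that contains AXIN and GSK3B marks β-catenin (CTNNB1) for breakdown, and with a signal β-catenin gathers, enters the nucleus and acts with DNA-binding proteins of the TCF family such as TCF7L2. Secreted antagonists limit the pathway outside the cell, and in the uterus the pathway is known for its part in gland formation and in the exchange between epithelium and stroma. These roles are known mainly from mouse, frog and human work.

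No Wnt member passed the test between horns after adjustment. The largest differences were in LRP6, whose signal with embryos was 0.416 to 0.764 times that with oocytes in the 3 sows at one of its probe sets, in 1 of the 5 probe sets for CTNNB1 (0.604 to 0.729 times), and, in the other direction, in 1 of the 2 for FZD6 (1.03 to 1.42 times). WIF1 was lower with embryos in all 3 sows. The other CTNNB1 probe sets, the other FZD6 probe set, DKK3, SFRP1 and TCF7L2 had fold changes close to 0 on the log2 scale or moved in opposite directions in different sows.

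The signal is the brightness of a probe set in arbitrary units as computed by the authors' array software, and it was compared on the log2 scale with limma, a linear model fitted to all 23999 probe sets that are not controls. Of these, 0 had an adjusted p under 0.05 (0% of the array), with and without the sow as a block. The adjusted p was 1.00 for every Wnt member without the block and at least 0.284 with it. Without the block, 1 of the 15 Wnt members (6.67%) reached an unadjusted p under 0.05, and it was lower with embryos. On the array 692 probe sets did so (2.88%; 1.59% lower with embryos). With the sow as a block 5 of 15 did so, 1 higher and 4 lower with embryos, against 2088 (8.70%), of which 3.75% were higher and 4.95% lower. Of the 15, 10 were above the median signal of the array, among them all 5 and the 1 called without the block. Of all probe sets above this median, 1.94% were called without the block and 11.9% with it. The 5 probe sets come from 4 genes, since LRP6 gave a pair of them. They include WIF1, which is in the set through a list that the study drew from these arrays. Its call is therefore not independent of these data. Of the 15, 8 had a log2 fold change above 0 and 7 below it (49.2% of the array lay below). The median of the 15 was 0.01, the same as that of the whole array.

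**Figure D1:**
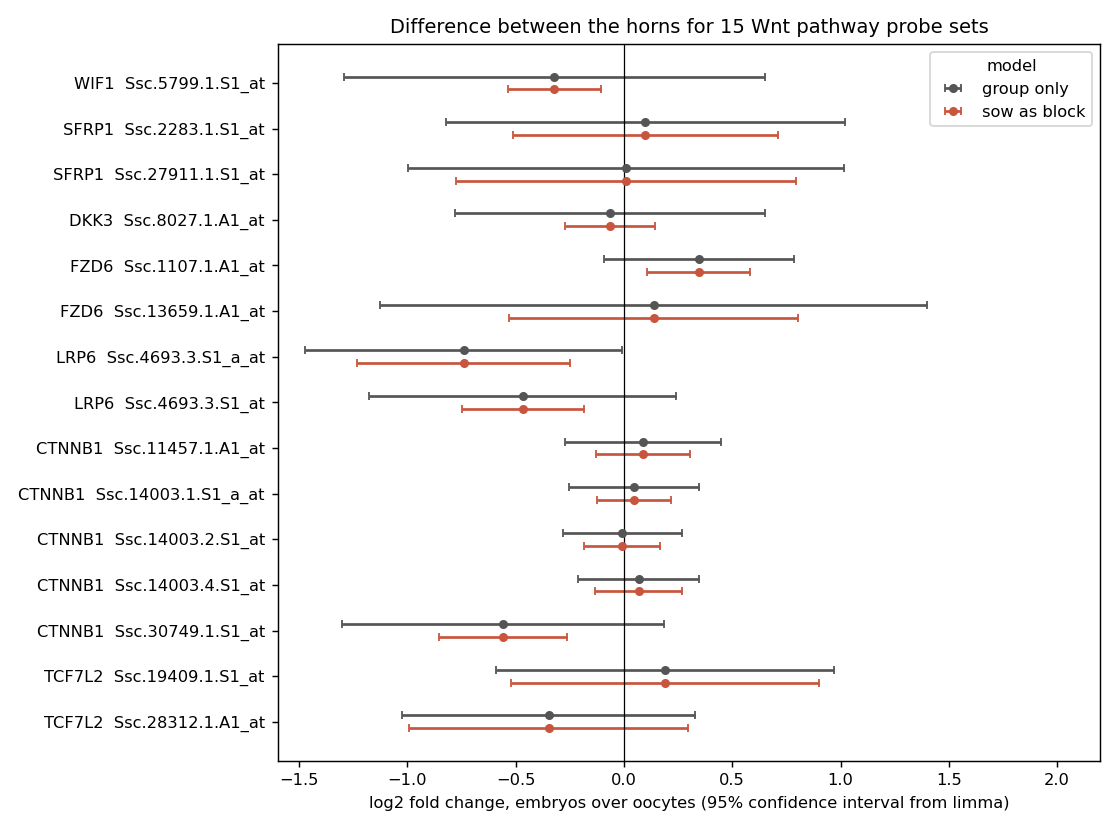
Log2 fold change of the 15 probe sets (horns with embryos over horns with oocytes, x axis) with 95% confidence intervals from limma, without the sow in the model (grey) and with the sow as a block (red). With the block the intervals of WIF1, 1 FZD6, both LRP6 and 1 CTNNB1 probe set lie to one side of 0, but no adjusted p was under 0.284.

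WIF1 (Wnt inhibitory factor) is a secreted protein that binds Wnt ligands outside the cell. Its signal was 470.3 (sow 1), 230.1 (sow 2) and 547 (sow 3) with embryos, against 506, 277 and 821 in the opposite horns, which held oocytes. The horn with embryos was lower in every sow, but the values of the groups overlapped, as sow 2 was low and sow 3 high in both horns. The mean was 416 ± 165 with embryos and 535 ± 273 with oocytes (SD, n = 3 each). The ratios within sows 1, 2 and 3 were 0.929, 0.832 and 0.666, and the log2 fold change was -0.32 (SE 0.43, unadjusted p = 0.470, limma). With the sow as a block the standard error was 0.10 and the 95% interval -0.54 to -0.11, with an unadjusted p of 0.00779 and an adjusted p of 0.407 from limma. This probe set stands on a list that the study drew from these arrays, so its direction is not independent evidence. The study called the transcripts of that list altered, from a mixed model of single probe values with Bonferroni correction. That model was not run here.

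SFRP1 is a secreted protein related to the Wnt-binding part of the Frizzled receptors. Both of its probe sets were below the median signal of the array. The brighter one had signals of 41.4, 19.4 and 25.1 with embryos in sows 1, 2 and 3, against 38.6, 14.7 and 28.2 with oocytes. The dimmer one had 22.8, 11.4 and 20.6 with embryos, against 24.3, 9.8 and 21.3 with oocytes. At both, sow 1 was highest and sow 2 lowest whichever horn was measured, and the sign of the difference changed between sows. The log2 fold changes were 0.10 (SE 0.40, unadjusted p = 0.813, limma) and 0.01 (SE 0.44, unadjusted p = 0.984, limma). The summed signal of 10 probe sets for stromal markers had the same order of sows, as had those of the smooth muscle and endothelial markers. Single probe sets in these lists did not all have this order. A measure of RNA quality, given with LRP6 below, had it too. The stromal sum was 6669.8 (sow 1), 3338 (sow 2) and 4999.6 (sow 3) with embryos and 7138, 3433 and 4794 with oocytes, and the part of these cell types in the SFRP1 signal was not tested. In scrapings, fewer cells of a type and less RNA per cell cannot be told apart.

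DKK3 is the most divergent of the Dickkopf proteins, a family of secreted Wnt modulators. Its signal was 201, 275 and 136 with embryos in sows 1, 2 and 3, against 222, 277 and 138 with oocytes. The horn with embryos was lower in each sow, by a margin far inside the spread between sows. The log2 differences within sows 1, 2 and 3 were -0.16, -0.01 and -0.02, and the fold change of -0.06 had a 95% interval of -0.27 to 0.14 with the sow as a block (unadjusted p = 0.505, limma). For DKK3 sow 2 was highest and sow 3 lowest in both horns, whereas for WIF1 sow 3 was highest and sow 2 lowest.

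**Figure D2:**
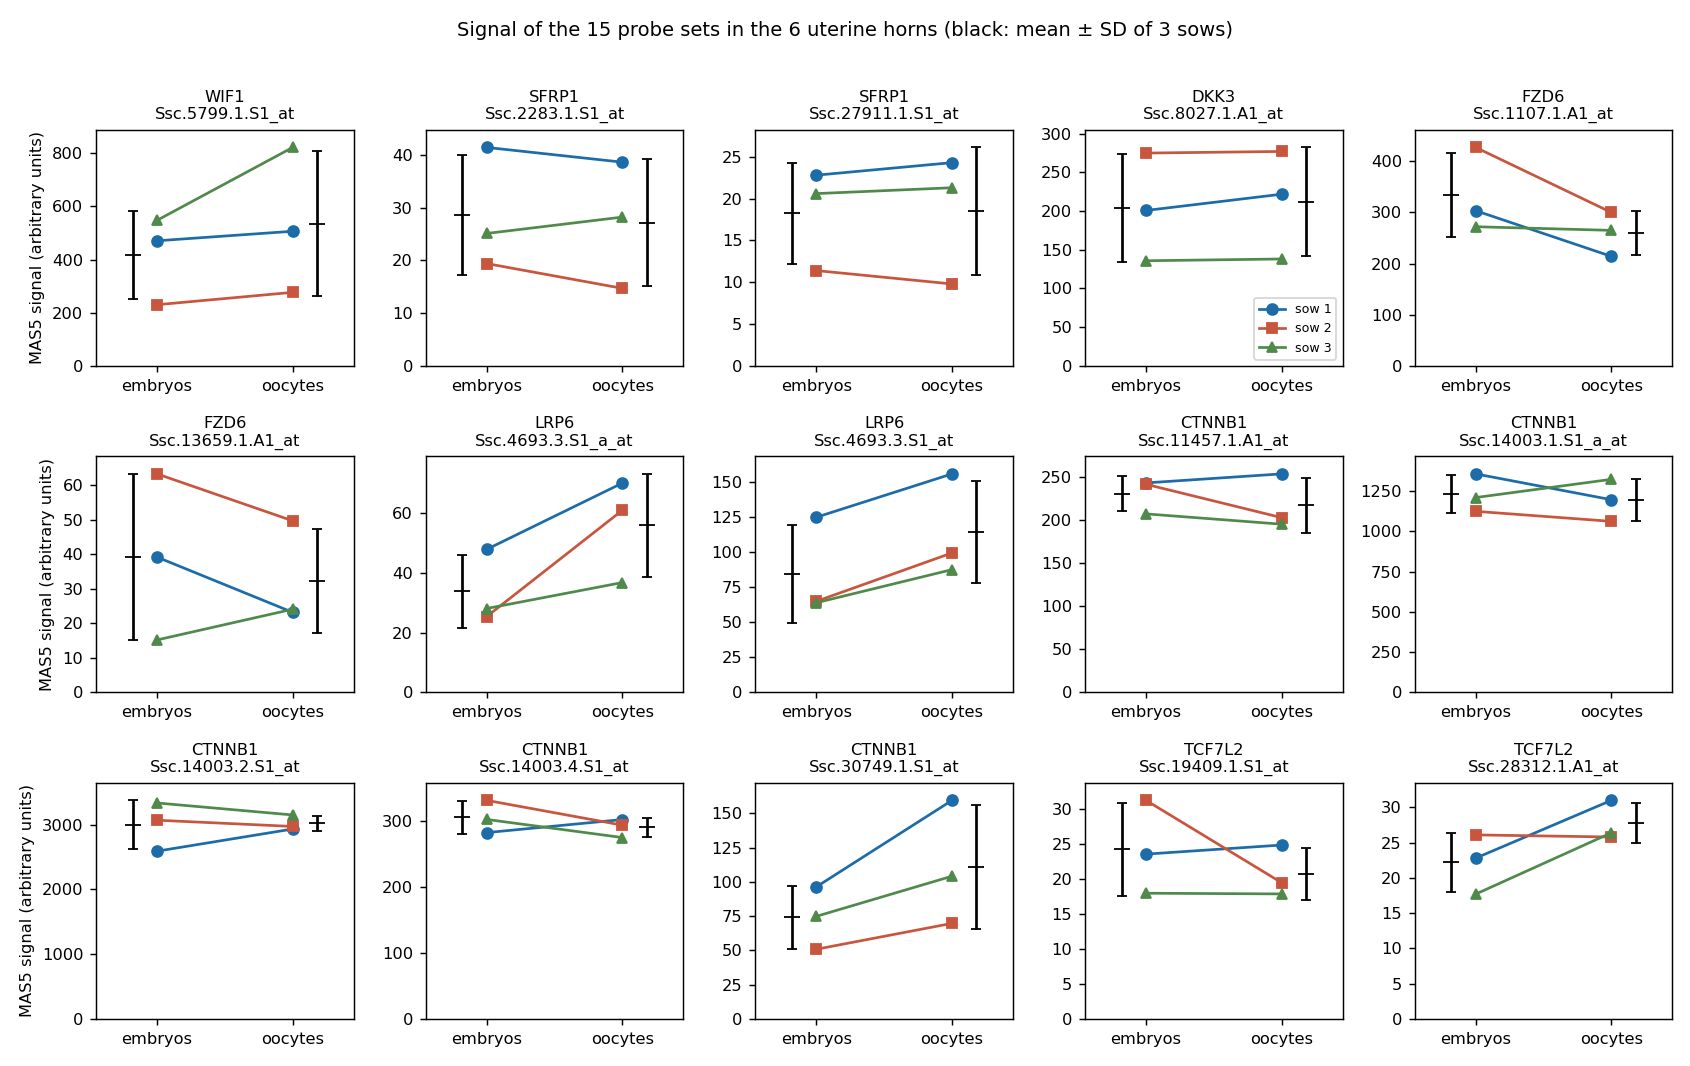
Signal of each probe set in arbitrary units (y axis, linear, starting at 0) in the horn with embryos and the horn with oocytes, with a line for each of the 3 sows and the mean ± SD of each group in black. The lines of WIF1, both LRP6 probe sets and the dimmest CTNNB1 probe set slope the same way in all sows, with the horn with embryos lower. Those of DKK3 do so too, by little, while those of the brighter FZD6 probe set slope the opposite way.

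FZD6 is a Frizzled receptor known best for planar cell polarity, a branch of Wnt signalling that does not use β-catenin. At its brighter probe set the signal was 303, 427 and 272 with embryos in sows 1, 2 and 3, against 214, 299.8 and 265 with oocytes. The horn with embryos was higher in every sow, clearly so in sows 1 and 2 and hardly in sow 3, and the groups overlapped. The mean was 334 ± 81.9 with embryos and 259.5 ± 43.1 with oocytes (SD, n = 3 each), and the ratios were 1.42, 1.42 and 1.03. The log2 fold change was 0.35 (SE 0.19, 95% interval -0.09 to 0.78, unadjusted p = 0.106, limma). With the sow as a block the interval was 0.11 to 0.58, with an unadjusted p of 0.00893 and an adjusted p of 0.422 from limma.

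Sow 3 had the smallest FZD6 difference of the 3 sows, so that leaving it out had to raise the fold change. Without it, in a model with the sow as a block that was chosen after seeing the data, the log2 fold change was 0.50 and the adjusted p 0.0277 from limma, and 203 probe sets of the array passed the adjusted threshold. Without sow 1 or sow 2 only 3 and 1 passed, and FZD6 had log2 fold changes of 0.27 and 0.27 with adjusted p of 0.768 and 0.828 from limma. No other Wnt member passed the adjusted threshold in any of these models, each of which rests on the 4 horns of 2 sows. At an unadjusted p under 0.05 they held 4, 3 and 5 of the 15 members without sows 1, 2 and 3, against 6.65%, 6.23% and 11.6% of the array. The dimmer FZD6 probe set was below the median signal and had 39.2, 63.3 and 15.2 with embryos, against 23.2, 49.7 and 24.1 with oocytes. It was higher with embryos in sows 1 and 2 and lower in sow 3, with a log2 fold change of 0.14 (SE 0.55, unadjusted p = 0.810, limma).

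LRP6, like the related LRP5, is a co-receptor that acts with Frizzled receptors in the branch that signals through β-catenin. At the dimmer of its probe sets the signal was 47.9, 25.4 and 28.1 with embryos in sows 1, 2 and 3, against 70.1, 61.0 and 36.8 with oocytes. At the brighter it was 125, 64.9 and 63.9 with embryos, against 156, 99.4 and 87.5 with oocytes. In every sow and at both probe sets the horn with embryos was the lower one. The groups still overlapped, since sow 1 with embryos lay above sow 3 with oocytes. The annotation ties both to the same sequence record, so they are not independent measurements of LRP6.

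The means were 33.8 ± 12.3 with embryos and 56.0 ± 17.2 with oocytes at the dimmer LRP6 probe set, and 84.5 ± 34.9 with embryos and 114 ± 36.4 with oocytes at the brighter (SD, n = 3 each). The log2 fold changes were -0.74 (SE 0.32, 95% interval -1.47 to -0.01, unadjusted p = 0.0481, limma) and -0.47 (SE 0.31, 95% interval -1.18 to 0.24, unadjusted p = 0.168, limma). The dimmer one is the only Wnt member past an unadjusted 0.05 when the sow is not in the model. It lost this with the signals as deposited, with 32 added to each signal and without a variance trend (unadjusted p = 0.0642, 0.0533 and 0.0736, limma). Its log2 fold change was -0.73 as deposited and -0.42 with 32 added, and its unadjusted p ran between 0.0139 and 0.151 (limma) when 1 array was left out. With the sow as a block the unadjusted p were 0.00742 and 0.00408, with adjusted p of 0.407 and 0.347 from limma. The largest difference at the dimmer LRP6 probe set was in sow 2, at -1.22 on the log2 scale, while sows 1 and 3 had -0.58 and -0.41.

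A sign of RNA quality moved the same way as LRP6. Control probe sets at the 5′ and the 3′ end of housekeeping transcripts had a lower 5′ to 3′ ratio in the horn with embryos in 3 of 3 sows. For GAPDH this ratio was 0.243, 0.130 and 0.199 with embryos, against 0.355, 0.200 and 0.226 with oocytes, and for actin it was 0.149, 0.0577 and 0.104 with embryos, against 0.219, 0.105 and 0.118 with oocytes. For the elongation factor EF1a it was 1.12, 0.871 and 1.10 with embryos, against 1.27, 1.14 and 1.14 with oocytes. The part of transcript integrity in the lower LRP6, WIF1 and CTNNB1 signals was not tested. Nor was it tested for ROCK1, PPP3CB, MAPK9 and PPP2R5E, which are given below and have probe sets lower with embryos in every sow.

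**Figure D3:**
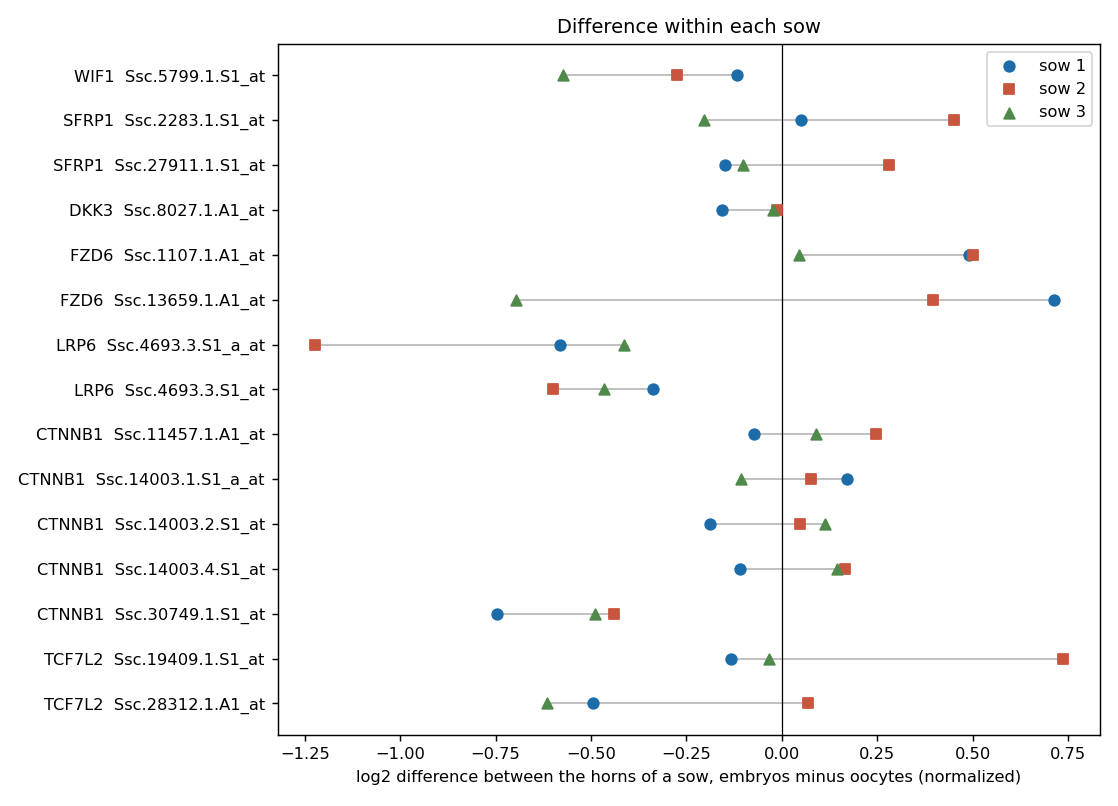
Log2 difference between the 2 horns of each sow, embryos minus oocytes, on the x axis after normalization, with 1 symbol per sow and 1 row per probe set. All 3 sows lie below 0 for WIF1, DKK3, both LRP6 probe sets and the dimmest CTNNB1 probe set, and above 0 for the brighter FZD6 probe set.

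CTNNB1 encodes β-catenin, which carries the Wnt signal to the nucleus and also holds E-cadherin to the cytoskeleton at junctions between epithelial cells. Its 5 probe sets are tied to the same RefSeq record, and 4 of them differed little between horns. The brightest had 2591, 3069.6 and 3336 with embryos in sows 1, 2 and 3, against 2934, 2973 and 3150.5 with oocytes, with a log2 fold change of -0.01 (95% interval -0.28 to 0.27, limma). The next brightest had 1357, 1125 and 1210.2 with embryos, against 1197, 1062 and 1323 with oocytes, with a log2 fold change of 0.05 (95% interval -0.25 to 0.35, limma). In both the horn with embryos was higher in some sows and lower in others.

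The third in brightness had 283, 332 and 303 with embryos, against 303, 294 and 275.5 with oocytes, and the fourth had 244, 242 and 208 with embryos, against 254, 203 and 196 with oocytes. Their log2 fold changes were 0.07 (95% interval -0.21 to 0.35, limma) and 0.09 (95% interval -0.27 to 0.45, limma). The intervals of these 4 CTNNB1 probe sets thus held all log2 changes from -0.28 to 0.45 at most, and their unadjusted p ran up to 0.942 (limma).

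The dimmest CTNNB1 probe set went another way. Its signal was 96.3, 50.8 and 74.8 with embryos in sows 1, 2 and 3, against 159, 69.7 and 104 with oocytes. Every sow was lower with embryos, with ratios of 0.604, 0.729 and 0.719, and the groups overlapped because sow 2 was low in both horns. The mean was 74.0 ± 22.8 with embryos and 111 ± 45.3 with oocytes (SD, n = 3 each). The log2 fold change was -0.56 (SE 0.33, 95% interval -1.30 to 0.19, unadjusted p = 0.123, limma). With the sow as a block the interval was -0.86 to -0.26, with an unadjusted p of 0.00190 and an adjusted p of 0.284 from limma, the lowest of the Wnt members. The difference between this probe set and the other 4 of CTNNB1 was not tested.

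TCF7L2 is a DNA-binding partner of β-catenin, and both of its probe sets were below the median signal. One had 23.6, 31.3 and 18.0 with embryos in sows 1, 2 and 3, against 24.9, 19.5 and 17.9 with oocytes, and the other had 22.8, 26.1 and 17.7 with embryos, against 31.0, 25.8 and 26.4 with oocytes. The pair moved in opposite directions, with log2 fold changes of 0.19 (SE 0.34, unadjusted p = 0.592, limma) and -0.35 (SE 0.30, unadjusted p = 0.273, limma), and neither had the same sign in all sows.

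The level of a Wnt member also varied among sows. The highest minus the lowest of the 3 sow means, on the log2 scale, was larger than the size of the fold change between horns in 14 of the 15, near the 83.7% of all probe sets. It was close to it for the dimmer LRP6 probe set (0.78 against 0.74) and the brighter FZD6 probe set (0.44 against 0.35). The exception was the TCF7L2 probe set with the negative fold change. The highest sow was 2.67 times the lowest for WIF1, 2.02 times for DKK3 and 2.10 and 1.93 times for the SFRP1 probe sets. It was 3.06 times the lowest for the dimmer FZD6 probe set and 2.03 times for the dimmest CTNNB1 probe set. Of the 15, 5 were lower with embryos in all 3 sows (14.8% of the array) and 1 was higher in all 3 (14.9%). The 5 include WIF1, which entered the set through the study's own list. The groups did not overlap in 0 of the 15, against 7.33% of the array.

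**Figure D4:**
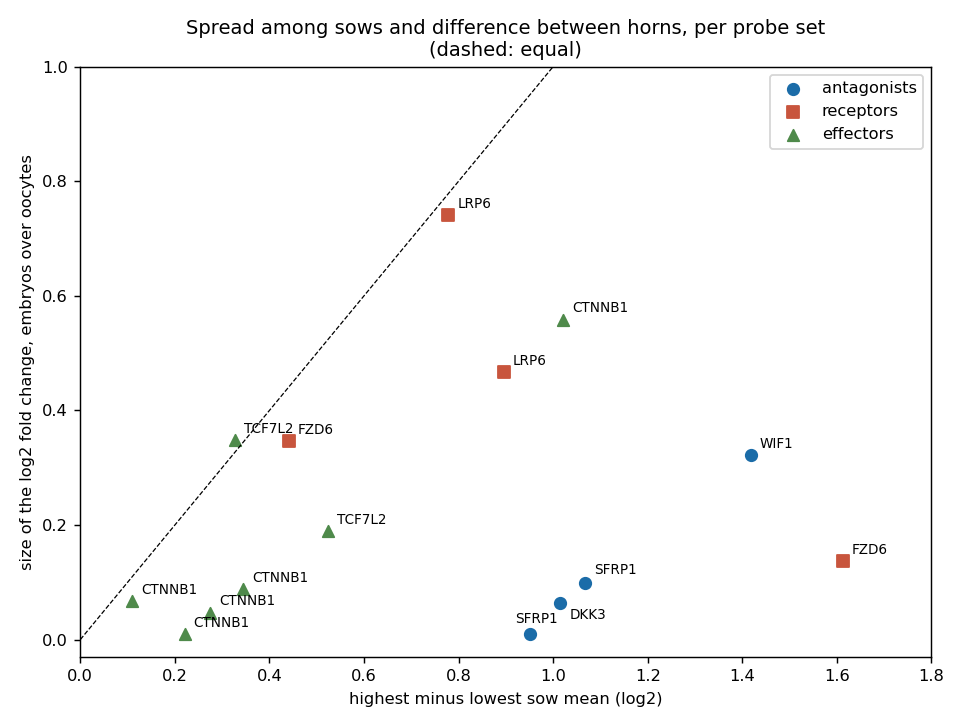
Size of the log2 fold change between horns (y axis) against the difference between the highest and the lowest sow mean on the log2 scale (x axis) for the 15 probe sets, with equality as a dashed line. All lie below the line except 1 TCF7L2 probe set. The dimmer FZD6 probe set lies farthest to the right, and WIF1, SFRP1, DKK3 and the dimmest CTNNB1 probe set also lie far to the right.

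A wider list of 139 Wnt pathway genes gave the surroundings of these members. The annotation named 43 of them, with 70 probe sets. Their log2 fold change was above 0 in 26 and below 0 in 44 (49.2% of the array lay below), and its median was -0.05. None had an adjusted p under 0.05 in limma. Without the block 4 reached an unadjusted p under 0.05 (5.71%, against 2.88% of the array), and with the block 9 did (12.9%, against 8.70%), 4 higher and 5 lower. Above the median signal were 51 of the 70. Of these 51, 1 reached it without the block (1.96%, against 1.94% of such probe sets on the array). With the block 6 of the 51 did (11.8%, against 11.9%). Without the oocyte array of sow 1, the 4 called without the block became 0.

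Of the ligands 1 of 18 was named, WNT10B, which was at 3.9, 12.8 and 1.9 with embryos, against 2.1, 8.2 and 0.7 with oocytes, near the bottom of the signal range. WLS, which carries Wnt proteins to the cell surface, was bright and differed by -0.01 on the log2 scale (95% interval -0.25 to 0.24, limma). FZD5, another Frizzled receptor, was at 1456, 1797 and 1808 with embryos, against 1458, 1658 and 1749.7 with oocytes (log2 fold change 0.06, 95% interval -0.22 to 0.34, limma). The inhibitor DKK1, which binds LRP6, was higher with embryos in sows 1 and 2 and lower in sow 3, with a log2 fold change of -0.19 (SE 0.45, unadjusted p = 0.687, limma). The related DKK2 differed by -0.09 (SE 0.16, limma), and the probe sets of APCDD1, a membrane-bound inhibitor, by 0.02 and -0.13. FZD2 and FZD4 differed by -0.21 and -0.05. None of these receptors and antagonists had an unadjusted p under 0.05, with or without the block, and no R-spondin was named.

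Inside the cell, the kinase CSNK1A1, which starts the marking of β-catenin, was at 734, 748 and 783 with embryos, against 619, 687 and 691 with oocytes at the second brightest of its 3 probe sets. These groups did not overlap, and the log2 fold change was 0.18 (SE 0.10, unadjusted p = 0.114 without and 0.0307 with the block, limma). The brightest CSNK1A1 probe set was at 856, 735 and 812 with embryos, against 888, 788 and 881 with oocytes, lower in every sow (log2 fold change -0.09, unadjusted p = 0.475, limma). The dimmest CSNK1A1 probe set was at 47.0, 55.1 and 37.2 with embryos, against 44.2, 31.1 and 32.1 with oocytes, higher in every sow (log2 fold change 0.37, SE 0.26, unadjusted p = 0.194, limma). The phosphatase subunits PPP2CA and PPP2CB differed by -0.01 and 0.08. CTNNBIP1, which blocks the binding of β-catenin to TCF proteins, was at 17.6, 24.1 and 16.8 with embryos, against 8.5, 12.6 and 4.8 with oocytes (log2 fold change 1.25, SE 0.48, unadjusted p = 0.0308, limma), at a probe set below the median signal. With 32 added to each signal its log2 fold change was 0.34, and the other CTNNBIP1 probe sets, both above the median, had -0.17 and 0.21. The corepressor CTBP2 differed by 0.15 and 0.04.

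Among genes known as Wnt targets, FOSL1 was at 8.6, 5.6 and 6.1 with embryos, against 1.3, 3.1 and 1.7 with oocytes (log2 fold change 1.78, SE 0.63, unadjusted p = 0.0204, limma), but these are among the dimmest signals of the array and 0.18 remained with 32 added to each. The other FOSL1 probe sets had -0.34 and -0.46. MSX1, a homeobox factor of the uterine epithelium, was at 664, 636 and 514 with embryos, against 455, 508 and 508 with oocytes. Its log2 fold change was 0.29 (SE 0.13, unadjusted p = 0.0549 without and 0.0136 with the block, limma), and as for FZD6 the difference was in sows 1 and 2 (0.54 and 0.31) and not in sow 3 (0.03). Without sow 3, MSX1 also passed in the model with the block (adjusted p = 0.0380, limma). Its dim second probe set had a log2 fold change of -0.06. MYC differed by -0.10 (SE 0.21, limma).

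In the β-catenin-independent branches, ROCK1, a kinase downstream of RHOA, was at 26.5, 14.7 and 21.6 with embryos, against 48.0, 28.6 and 37.7 with oocytes at a dim probe set (log2 fold change -0.89, SE 0.31, unadjusted p = 0.0189, limma). With 32 added to each signal its log2 fold change was -0.41 (unadjusted p = 0.0169, limma). A brighter ROCK1 probe set had -0.59 (unadjusted p = 0.0598 without and 0.00553 with the block, limma). The dimmest ROCK1 probe set was at 1.1, 3.9 and 1.2 with embryos, against 1.4, 2.2 and 1.6 with oocytes. It was higher with embryos in sow 2 and had a log2 fold change of -0.02. PPP3CB, a catalytic subunit of calcineurin, was at 75.6, 39.2 and 53.6 with embryos, against 97.5, 75.6 and 73.0 with oocytes (log2 fold change -0.59, SE 0.25, unadjusted p = 0.0446, limma), while its brighter probe sets had -0.02 and 0.08. RHOA and RAC1 differed by -0.09 and -0.01, and RAC1 turned to 0.01 under quantile normalization. The PPP3CB probe set with the fold change of -0.59, a further probe set that the supplement assigns to ROCK1, MAPK9 and PPP2R5E are, like WIF1, on the study's own list from these arrays. They were lower with embryos in 3 of 3 sows, with log2 fold changes of -0.30 for this ROCK1 probe set, -0.38 for MAPK9 and -0.28 for PPP2R5E, unadjusted p of 0.0691, 0.156 and 0.141 without the block and of 0.0264, 0.0153 and 0.0175 with it (limma). The adjusted p of these 3 with the block were 0.505, 0.468 and 0.471. The probe sets that the annotation names for MAPK9 and PPP2R5E had log2 fold changes of -0.35 and -0.22. Their unadjusted p with the block were 0.270 and 0.129 (limma).

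The junction partner of β-catenin, E-cadherin (CDH1), was at 1091, 1553 and 1447 with embryos, against 1053, 1532 and 1361 with oocytes at its bright probe set (log2 fold change 0.06, 95% interval -0.33 to 0.44, limma). At the dimmer one it was at 86.5, 38.9 and 76.9 with embryos, against 126, 79.5 and 67.8 with oocytes (log2 fold change -0.47, unadjusted p = 0.195 without and 0.0467 with the block, limma). So CDH1, as CTNNB1, had a bright probe set with almost equal horns and a dimmer one that was on average lower with embryos. For CTNND1, another catenin of the junction, the log2 fold change was -0.55 (SE 0.46, unadjusted p = 0.266, limma) at a signal below the median.

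**Figure D5:**
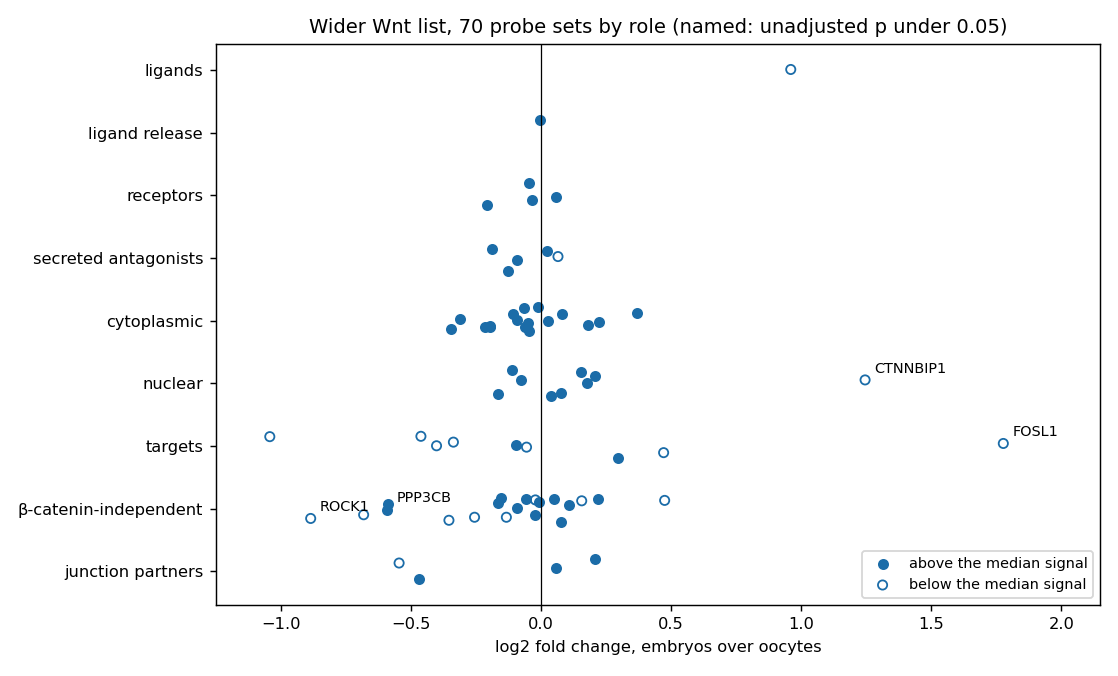
Log2 fold change (embryos over oocytes, x axis) of the 70 probe sets of the wider Wnt list by role, with filled circles above and open circles below the median signal of the array. The 4 named have an unadjusted p under 0.05 in limma, and the bright probe sets mostly lie near 0.

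The probe sets whose log2 signal ran most like that of WIF1 over the 6 arrays, among 6104 with 1 symbol and a signal above the median, belonged to SMARCA5, SLC38A1, SYBU, GTF3C6 and TMEM184C, with Pearson correlations of 0.991, 0.991, 0.990, 0.983 and 0.980. Each had, as WIF1, its highest signals in sow 3 and its lowest in sow 2, an order that the choice by likeness to WIF1 brings with it. SMARCA5, a chromatin remodelling ATPase, was at 181, 149 and 192 with embryos, against 187, 164 and 221 with oocytes. SLC38A1, an amino acid transporter, was at 664, 476 and 769.7 with embryos, against 669.6, 493 and 905 with oocytes. The likeness rests on 6 arrays of 3 sows that share the same scaling.

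Across the arrays, the median signal was 30.6 to 35.8 and 25.4% to 29.0% of probe sets were under 10, where small differences give large ratios. Of the 43 probe sets for markers of epithelium, stroma, smooth muscle, endothelium, leukocytes, ciliated cells and erythrocytes, 0 had an unadjusted p under 0.05 in limma and 1 with the block, the dim CDH1 probe set. The summed signal of the epithelial markers was 7859 to 10735 with embryos and 8141 to 10566 with oocytes, and that of the stromal markers 3338 to 6669.8 with embryos and 3433 to 7138 with oocytes. Smooth muscle markers, of which 2 of 6 probe sets were above the median signal, summed to 1375, 575 and 911 with embryos in sows 1, 2 and 3, against 2144, 466 and 791 with oocytes, so that sow 1 was lower and sows 2 and 3 higher with embryos. Endothelial markers summed to 212 to 351 with embryos and 238 to 334.5 with oocytes, and erythrocyte markers to 423 to 942 with embryos and 362 to 966 with oocytes. Leukocyte markers summed to 66.7 to 95.6 with embryos and 57.3 to 112.5 with oocytes, and no marker was at 0 on all arrays.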

How the data were processed

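Scrapings of both uterine horns of 3 sows were measured on 6 arrays. The deposited values are intensity signals per probe set, which the authors computed with the MAS5 software, version 5.1. They are linear, with a trimmed mean of 100.02 on each array. As they do not hold the Lowess step of the methods, log2 signals (floor 0.1) were normalized by cyclic loess. After removal of 124 control probe sets, 23999 were tested with limma 3.58.1 in R 4.3.3 (group only, variance trend, Benjamini-Hochberg adjustment, threshold 0.05), a fit tried on simulated data. Figures were made in Python 3.11.15 (matplotlib 3.10.9). The number of arrays, 3 per group, limits the precision.

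Equal replicate numbers in the labels were taken as the same sow, which the sample titles do not say in words. The study states that both horns of each sow were sampled. Between the 2 horns of a sow the deviations from the group means had correlations of 0.207, 0.173 and 0.100 over all probe sets. Over those above the median signal they were 0.734, 0.693 and 0.496. Of the arrays, 6 of 6 correlated best with their own number. Results with the sow as a block stand beside those without where a call changed.

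The members and lists were chosen with earlier results of these data known. Named were all member probe sets, per role of the wider list up to 2 with the smallest p and up to 2 with the highest signal, the study's other Wnt transcripts, and the 5 most like WIF1. Further probe sets of CSNK1A1, CTNNBIP1, FOSL1, ROCK1, PPP3CB, MSX1, MAPK9 and PPP2R5E were named after their values were seen. Of the tested probe sets 10069 have 1 symbol. Alternatives were other normalizations, an added signal of 32, a filter on dim probe sets, no variance trend, the block, and leaving out arrays. Single probes, detection calls and qPCR were not analysed here, and no sequences were used.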

Additional observations from a re-analysis of the deposited data

How the results depend on the processing

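No probe set passed at an adjusted p under 0.05 in limma under the other normalizations, the added signal, the filter, no variance trend, the replicate block (the sow) or the loss of 1 array. In the models with the block and without 1 sow, added after seeing the data, 3, 1 and 203 passed without sows 1, 2 and 3. The number of Wnt members with an unadjusted p under 0.05, 1 of 15, became 0 with the signals as deposited, with 32 added and without a variance trend, and 5 with the replicate block. It ranged from 0 to 2 when 1 array was left out (0 without the embryo array of sow 2 or the oocyte array of sow 1, 2 without the embryo array of sow 1), and was 4, 3 and 5 with the block and without sows 1, 2 and 3. For the wider list, 4 became 1 above the median signal and 9 with the replicate block, ranged from 0 to 4 without 1 array (0 without the oocyte array of sow 1, 1 without the embryo array of sow 2 and 2 without the oocyte array of sow 3), and was 5, 6 and 12 with the block and without sows 1, 2 and 3. The cause of these shifts was not tested. With all 6 arrays in the model, the sign turned in 3 of 44 named probe sets: the dimmer SFRP1 probe set to -0.00775 with 32 added, WLS to 0.00447 under quantile normalization, and RAC1 to 0.00614 under quantile normalization and 0.000659 under scaling to the same median. In the models with the block and without 1 sow, it turned in 15 of 41 named probe sets, 6 of them Wnt members (both SFRP1, the dimmer FZD6, 2 CTNNB1 and 1 TCF7L2 probe set), with turned values from -0.28 (APCDD1 without sow 3) to 0.38 (DKK1 without sow 3). Without 1 array, the log2 fold change changed sign in 8 of 15 Wnt members: WIF1 ranged from -0.74 to 0.070, SFRP1 from -0.27 to 0.37 (brighter) and -0.37 to 0.25 (dimmer), DKK3 from -0.35 to 0.20, the dimmer FZD6 probe set from -0.37 to 0.71, CTNNB1 from -0.10 to 0.088 (brightest) and -0.045 to 0.12 (next brightest), and the TCF7L2 probe set with a positive fold change from -0.070 to 0.38. It kept its sign for LRP6 (-1.01 to -0.58 at the dimmer and -0.78 to -0.22 at the brighter probe set). The same held for the brighter FZD6 probe set (0.17 to 0.48) and the dimmest CTNNB1 probe set (-0.85 to -0.26). The CTNNB1 probe sets with log2 fold changes of 0.07 (0.016 to 0.11) and 0.09 (0.0063 to 0.22) also kept their sign. The log2 fold change kept its sign too for the TCF7L2 probe set with a negative fold change (-0.53 to -0.20). In the wider list it turned for WLS (-0.058 to 0.037), FZD5 (-0.000515 to 0.15), FZD4 (-0.11 to 0.00437), DKK1 (-0.58 to 0.36), APCDD1 (-0.25 to 0.42 and -0.39 to 0.23), PPP2CA (-0.046 to 0.00864), MYC (-0.19 to 0.084), RHOA (-0.31 to 0.079), RAC1 (-0.091 to 0.078) and the bright CDH1 probe set (-0.079 to 0.20). Signals below the median, as of SFRP1, TCF7L2, CTNNBIP1 and FOSL1, depend on how low values are treated.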
